A study of Mus musculus with 6 samples.

Results

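Granzymes A, B, C, D, E, F, K and M (Gzma, Gzmb, Gzmc, Gzmd, Gzme, Gzmf, Gzmk, Gzmm) and perforin (Prf1) were followed as messenger RNA in single T and natural killer (NK) cells of mouse mammary tumours. These 9 genes were taken by symbol from 22547 genes shared by both deposited count tables, and they were described in 7769 T and NK cells out of 22885 cells used. The tumours carried an MMTV-Wnt1 transgene and a dimerizer-inducible Fgfr1 (genotype labelled MMTV-Wnt1/iFGRR1 to MMTV-Wnt1/iFGRR6, with the last number differing by library). The MMTV promoter acts mainly in mammary epithelium, and its activity in the lymphocytes was not tested. Tumours were transplanted, with the strain labelled FVB (FVB.rGH-Luc-GFP), and grown with B/B homodimerizer every 3 days until 4 to 5 mm across.

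There were 6 libraries, 1 per group. Primary tumours came from mice of 8 to 10 weeks. Dormant residual tissue (10 to 12 weeks) had received the FGFR inhibitor NVP-BGJ398 by gavage for 14 days from a size of 7 to 9 mm, followed by 14 days without it. Recurrent tumours (20 to 22 weeks) grew in mice left untreated after that schedule. Long-term dormant tissue (labelled LT_DT) came from mice of 32 to 34 weeks. It is listed with the same inhibitor schedule, 14 days from a size of 7 to 9 mm and 14 days without it, and no separate schedule was given. In the antibody arms (16 weeks) dormant tumours were then given control IgG or anti-Jagged-1 at 15 mg/kg weekly for 5 weeks and were collected 1 week later. All cells were frozen, thawed and sorted as DAPI-negative live cells. The 4 stage libraries used Chromium 3' version 2 chemistry and the 2 arms version 3, so stages and arms were never compared with each other. How many animals fed each library was not given in the labels, and a library has no replicate. No difference was therefore tested, and each interval printed is a 95% interval of counting error alone.

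Granzymes are serine proteases that cytotoxic lymphocytes store in granules, and perforin forms the pores through which they reach the cytosol of a target cell. Granzyme B cleaves caspases and their substrates and is the classical trigger of apoptosis. Granzyme A is a tryptase with other substrates. Granzymes C to F are mouse granzymes encoded beside granzyme B, granzyme K is a tryptase encoded beside granzyme A, and granzyme M is best known from NK cells. In mice resting NK cells hold granzyme messages ready, while T cells gain them after activation.

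In the mm10 annotation (GENCODE vM21) the genes lie at 4 places. Gzmb (14:56258838-56262260), Gzmc (14:56231441-56234656), Gzmf (14:56205263-56211417), Gzmd (14:56129556-56132608) and Gzme (14:56117626-56120625) stand in 1 row of 7 genes on the minus strand of chromosome 14, 144.6 kb long, together with Gzmg and Gzmn. Gzma (13:113093825-113100981) and Gzmk (13:113171608-113225908) are on chromosome 13, and Prf1 (10:61297833-61304680) and Gzmm (10:79689020-79695261) on chromosome 10. Gzmf overlaps Gm4022 and Gzmk overlaps Esm1, each on the opposite strand, and no other gene overlapped a member. Transcripts of Gzmd and Gzme were 90.4% identical. In the last 400 bases, near which 3' libraries are read, of the transcripts no window of 91 bases was shared between any 2 granzymes.

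The start regions of 5 members are shown because Gzmb, Gzmc and Gzmf were highest in Primary or Recurrent tumours and Gzma in dormant tissue, and Prf1 encodes the pore. Each is 250 bases before to 50 bases after the RefSeq start (GRCm38.p6), read 5' to 3' on the gene's strand. They cover chr14:56262285-56262584 (minus), chr14:56234608-56234907 (minus), chr14:56211358-56211657 (minus), chr13:113100932-113101231 (minus) and chr10:61297586-61297885 (plus). Capitals mark matches on either strand to a RUNX core (TGTGGT), an AP-1 motif (TGANTCA) or a cyclic AMP response element (TGACGTCA).
Gzmb: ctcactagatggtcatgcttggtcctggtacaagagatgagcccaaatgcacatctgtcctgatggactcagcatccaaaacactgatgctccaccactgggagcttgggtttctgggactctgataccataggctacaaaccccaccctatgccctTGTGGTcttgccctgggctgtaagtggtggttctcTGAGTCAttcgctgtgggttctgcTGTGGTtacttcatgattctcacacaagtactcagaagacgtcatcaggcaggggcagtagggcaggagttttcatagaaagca
Gzmc: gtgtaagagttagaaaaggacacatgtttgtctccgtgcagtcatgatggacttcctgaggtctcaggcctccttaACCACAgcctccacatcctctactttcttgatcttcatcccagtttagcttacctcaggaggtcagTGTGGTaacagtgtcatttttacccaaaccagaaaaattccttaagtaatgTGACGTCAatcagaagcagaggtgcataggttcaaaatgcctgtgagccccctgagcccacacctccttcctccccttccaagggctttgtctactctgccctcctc
Gzmf: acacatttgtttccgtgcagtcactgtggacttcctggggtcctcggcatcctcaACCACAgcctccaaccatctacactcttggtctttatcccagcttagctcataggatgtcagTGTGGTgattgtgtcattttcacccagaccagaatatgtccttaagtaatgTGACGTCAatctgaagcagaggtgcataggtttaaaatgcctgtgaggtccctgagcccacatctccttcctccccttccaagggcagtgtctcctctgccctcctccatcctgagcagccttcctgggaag
Gzma: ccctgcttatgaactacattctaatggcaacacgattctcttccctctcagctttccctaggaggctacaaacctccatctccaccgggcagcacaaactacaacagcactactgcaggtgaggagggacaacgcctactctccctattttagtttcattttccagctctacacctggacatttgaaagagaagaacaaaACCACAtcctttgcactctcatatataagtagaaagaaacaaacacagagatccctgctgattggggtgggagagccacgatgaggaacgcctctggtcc
Prf1: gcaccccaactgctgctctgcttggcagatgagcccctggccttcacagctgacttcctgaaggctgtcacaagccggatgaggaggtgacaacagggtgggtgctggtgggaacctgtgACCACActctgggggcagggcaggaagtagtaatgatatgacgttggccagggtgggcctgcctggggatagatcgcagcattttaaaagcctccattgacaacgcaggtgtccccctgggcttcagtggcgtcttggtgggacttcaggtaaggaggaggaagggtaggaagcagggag
The RUNX core occurred 2 times in each of the Gzmb, Gzmc and Gzmf windows and 1 time in those of Gzma and Prf1, and 16.8% of 32851 windows of the same length held it. The cyclic AMP element was in Gzmc and Gzmf (1.79% of all windows), and the AP-1 motif in Gzmb (7.81%). A T-box half-site (TCACACC, 3.98%) and TATAAA (13.6%), also searched on both strands, had no match in these 5 windows. The windows of Gzmc and Gzmf were 74.6% identical, and those of Gzmb and Gzmc 49.2%. A match is a run of letters, not a measured binding site.

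Among the stages, Dormant had the most T and NK cells (1863 of 3276 cells), ahead of Primary (716 of 4275), Recurrent (469 of 4628) and long-term dormant (467 of 5867). The arms had 1795 of 2117 (IgG) and 2459 of 2722 (Jag1). Their median depth ran from 1429 unique molecular identifiers (UMIs) per cell in long-term dormant to 2920 in Recurrent, and was 3985 in IgG and 4834 in Jag1. Levels are UMIs per 1000000 UMIs of the same cells (CPM), and shares of cells with a UMI move with depth. The IgG and Jag1 libraries shared 131 cell barcodes of 2133, and all 128 shared pairs that could be typed were of the same broad cell type in both. The UMI totals of the paired barcodes differed by a median of 13.9 times. These included 27 T and NK cells of IgG and 28 of Jag1, of which 15 and 6 were among the 21 and 25 cycling cells. The 21 IgG cells were led by the immunoglobulin genes Igkc and Ighg1 beside cell-cycle genes, with plasma cell markers at 17566 CPM (4 of 4 detected), and held 36 of the 3719 Gzma UMIs of IgG lymphocytes. Leaving shared barcodes out ended no call of a member in all T and NK cells or in the CD8-like, NK-like, gamma-delta-like or innate-like classes named below. Calls in CD4-like and cycling cells, and those of other genes, were not rerun. Fibroblast markers summed to 854 CPM in long-term dormant lymphocytes with all 6 detected, against at most 69.3 CPM in the other 5 libraries. Handling-stress genes summed to 5000 CPM in Dormant, between 2642 and 3574 CPM in the other stages, and to 5991 (IgG) and 5479 CPM (Jag1) in the arms. The part of these signals in the results was not tested.

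Lymphocytes were grouped within each library into clusters that were made without the 9 genes and named from lineage markers. The naming rule was set after the clusters were seen. CD8-like cells numbered 634 in Dormant, 150 in Primary, 128 in long-term dormant and 84 in Recurrent, with 810 (IgG) and 1179 (Jag1) in the arms. NK-like cells, with Cd3e in at most 30% of a cluster, were 448 in Dormant, 125 in long-term dormant, 191 in IgG and 338 in Jag1. An innate-like class, with Cd3e and also the NK adaptors Fcer1g and Tyrobp, had 212 cells in Primary, 203 in Recurrent and 158 in IgG. Gamma-delta-like cells were 264 in Dormant, 26 in long-term dormant, 137 in IgG and 292 in Jag1. The rest were CD4-like, cycling or left unnamed. A cluster low in Cd3e was NK-like even where innate-like markers scored higher than NK markers. That held for the larger NK-like cluster of Dormant (271 cells, mean marker log2 ratio 0.93 against 0.52), IgG (113 cells, 1.39 against 0.26) and Jag1 (197 cells, 1.31 against -0.03). By this rule Primary and Recurrent had no NK-like cluster and Dormant no innate-like one, so cells were also sorted singly by gates on receptor and lineage genes. The innate-like class of IgG differed from those of Primary and Recurrent. In IgG 72.8% of the class passed no gate, against 29.7% in Primary and 28.1% in Recurrent. Its larger cluster (108 cells) had mean marker log2 ratios of 0.10 for innate-like and 0.06 for NK.

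Gzmb and Gzmc had their highest levels in the Primary and Recurrent tumours, and Gzma in dormant tissue. In all T and NK cells Gzmb stood at 966 CPM (24.6% of cells) in Primary and 1504 CPM (37.5%) in Recurrent, against 129.9 CPM (14.0%) in Dormant and 163 CPM (15.2%) in long-term dormant. Gzmc stood at 504, 427, 8.10 and 1.15 CPM in the same order. Primary and Recurrent were thus the high pair for both genes, and the counting intervals of the high and low pairs did not overlap. In Dormant 1 cell held 16.7% of the Gzmb UMIs. Gzma ran the other way, at 857 CPM (26.3% of cells) in long-term dormant, 305 CPM (17.4%) in Dormant, 91.2 CPM (3.91%) in Primary and 45.9 CPM (3.20%) in Recurrent. The shares kept that order in cells thinned to 1000 UMIs, at 21.8%, 12.2%, 2.68% and 1.56%. Thinning left out cells under 1000 UMIs, which were 132 of 467, 132 of 1863, 118 of 716 and 20 of 469 in that order. A UMI of any of the 9 genes was in 33.7% of T and NK cells in Primary, 46.7% in Recurrent, 32.6% in Dormant and 34.3% in long-term dormant, and in 53.3% (IgG) and 57.3% (Jag1) in the arms.

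Prf1 and Gzmm were also counted at every stage. Prf1 was at 34.9, 44.4, 55.2 and 17.9 CPM in Primary, Dormant, long-term dormant and Recurrent, the order used below. Gzmm was at 2.15, 16.8, 12.6 and 5.10 CPM. Gzmf was found in force in Recurrent alone among the stages, at 171 CPM (268 UMIs in 21 cells, of which 1 cell held 32.1%), with 5 UMIs in Dormant and 0 in Primary and long-term dormant. Gzmd (7 UMIs) and Gzme (5 UMIs) also came mostly from Recurrent, where 0 Gzmd UMIs were counted in the other 3 stages and 1 Gzme UMI in long-term dormant. Gzmk had 3 UMIs in Primary, 19 in Dormant and 0 in the other 2 stages, where 3 UMIs would equal 3.45 and 1.91 CPM.

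**Figure D1:**
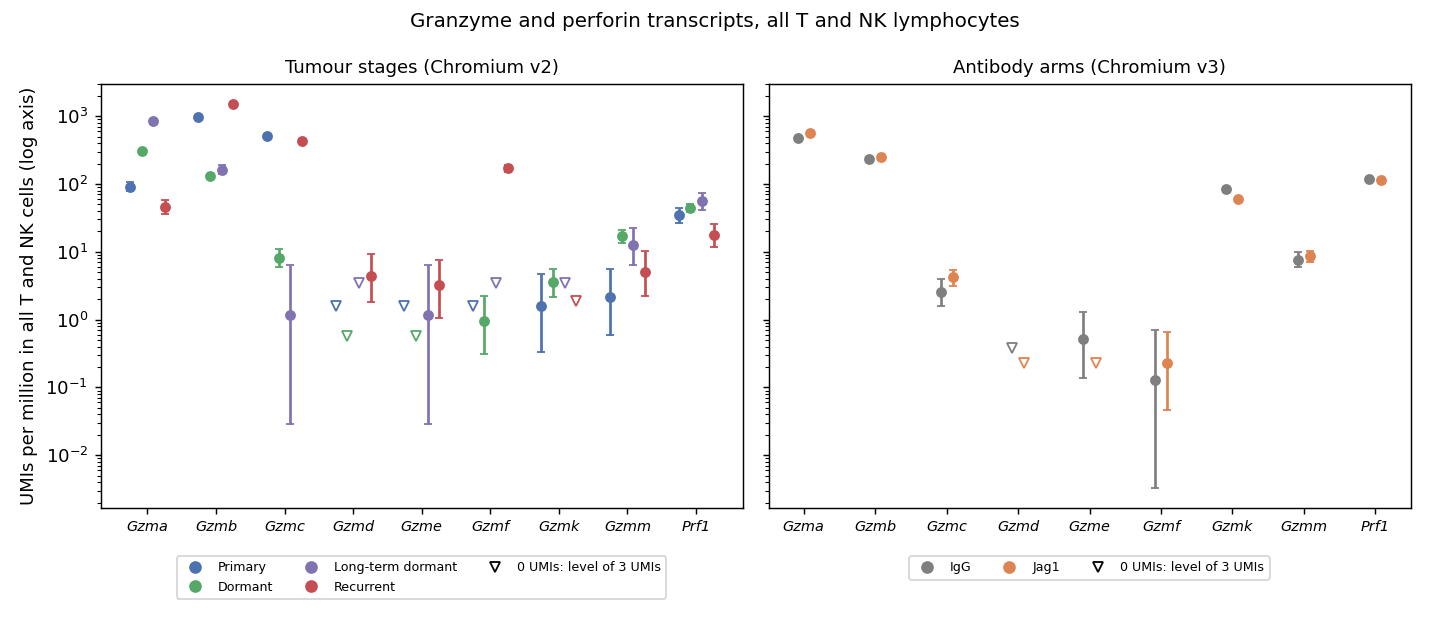
Level of each of the 9 genes in all T and NK cells, in CPM on a log axis, with the 4 stage libraries in one panel and the IgG and Jag1 libraries in the other. Bars are 95% Poisson intervals of counting error, and open triangles mark 0 UMIs, drawn at the level of 3 UMIs. Gzmb and Gzmc are highest in Primary and Recurrent, Gzma in long-term dormant, and the 2 arms lie close together.

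A difference was called past the fold where the ratio was at least 2-fold, its interval excluded 1 and both libraries together had at least 20 UMIs. Dormant against Primary had 6 members with enough UMIs. Gzma was higher by 1.74 on the log2 scale (95% interval 1.51 to 1.98) and Gzmm by 2.80 (1.56 to 4.87, from 4 UMIs in Primary). Gzmb was lower at -2.89 and Gzmc at -5.94, and Prf1, at 0.34 (-0.05 to 0.77), was not called. Over all 9160 genes with enough UMIs, 8.93% were past the fold higher and 7.65% lower.

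Recurrent against Dormant had 3 members higher (Gzmb 3.53, Gzmc 5.71, Gzmf 7.37) and 3 lower (Gzma -2.72, Gzmm -1.64, Prf1 -1.29 with an interval of -1.94 to -0.75) of 6 with enough UMIs. The background was 7.84% higher and 7.29% lower. The Prf1 call was lost in cells thinned to 1000 UMIs (-0.43). Gzmd was at least 7.90-fold and Gzme at least 5.64-fold higher in Recurrent, against 3 UMIs over the Dormant library, on fewer than 20 UMIs each. Long-term dormant against Dormant had 1 of 5 higher, Gzma at 1.49 (1.36 to 1.62), and 1 lower, Gzmc at -2.25 on 1 UMI. The background there was 9.62% and 4.58%, and the Gzmc call was lost by gates, by thinning and without the cell richest in Gzmc. Recurrent against Primary had 1 of 5 past the fold, Gzmf, at least 106-fold higher in Recurrent (background 2.44% higher, 1.75% lower), while Gzmb differed by 0.64, Gzmc by -0.24, Gzma by -0.98 and Prf1 by -0.95. Gzma and Prf1 lay at the limit, and 1 or both were called lower under 8 of the alternatives. Primary is the reference of 2 of these comparisons and Dormant takes part in 3, so they are not independent.

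Granzyme A was carried mostly by NK-like cells in Dormant, and by NK-like and cycling cells in long-term dormant. In Dormant these cells were 24.0% of T and NK cells and held 71.9% of Gzma UMIs, at 1071 CPM (95% interval 1011 to 1135) with a UMI in 46.9% of cells. In long-term dormant NK-like cells stood at 1782 CPM (1586 to 1996) with a UMI in 52.0%. The difference of 0.74 on the log2 scale (0.55 to 0.92) was under the 2-fold limit. Between the same libraries Gzmb in NK-like cells was 185 and 286 CPM and Prf1 84.7 and 143 CPM, and none of 5 members was past the fold (background 5.45% higher, 6.24% lower).

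The larger Gzma total of long-term dormant also came from cycling cells, which were 21.8% of its lymphocytes and held 56.1% of its Gzma UMIs. Their Gzma level was 1175 CPM against 132 CPM in the cycling cells of Dormant, higher by 3.15 (2.84 to 3.47). That was 1 of 3 members past the fold higher and 0 lower, beside 4.43% and 6.35% of all genes. The 2 cycling classes differed in makeup. In long-term dormant the larger cycling cluster (88 cells, Gzma 1568 CPM) had the NK receptor gene Klra7 among its leading genes, whereas the Dormant cluster was led by H2-Aa, Cd74 and Cst3 as well as cell-cycle genes. Proliferation genes summed to 1035 CPM in all long-term dormant lymphocytes and 427 CPM in Dormant.

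Gates gave the same order for Gzma. NK-gated cells stood at 487, 1375, 1922 and 293 CPM from Primary to Recurrent in the order above. Gamma-delta-gated cells stood at 86.5, 353, 998 and 12.9 CPM, with 33 cells in long-term dormant. Both gates were therefore higher in the 2 dormant libraries than in Primary and Recurrent. In Dormant CD8-like (5.52%) and CD4-like cells (5.90%) the share with a Gzma UMI was close to the 5.23% of epithelial cells, which should lack the gene, at median depths of 2406, 2045.5 and 6935.5 UMIs. Thinned to 1000 UMIs these shares were 3.22%, 3.27% and 0.987%.

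**Figure D2:**
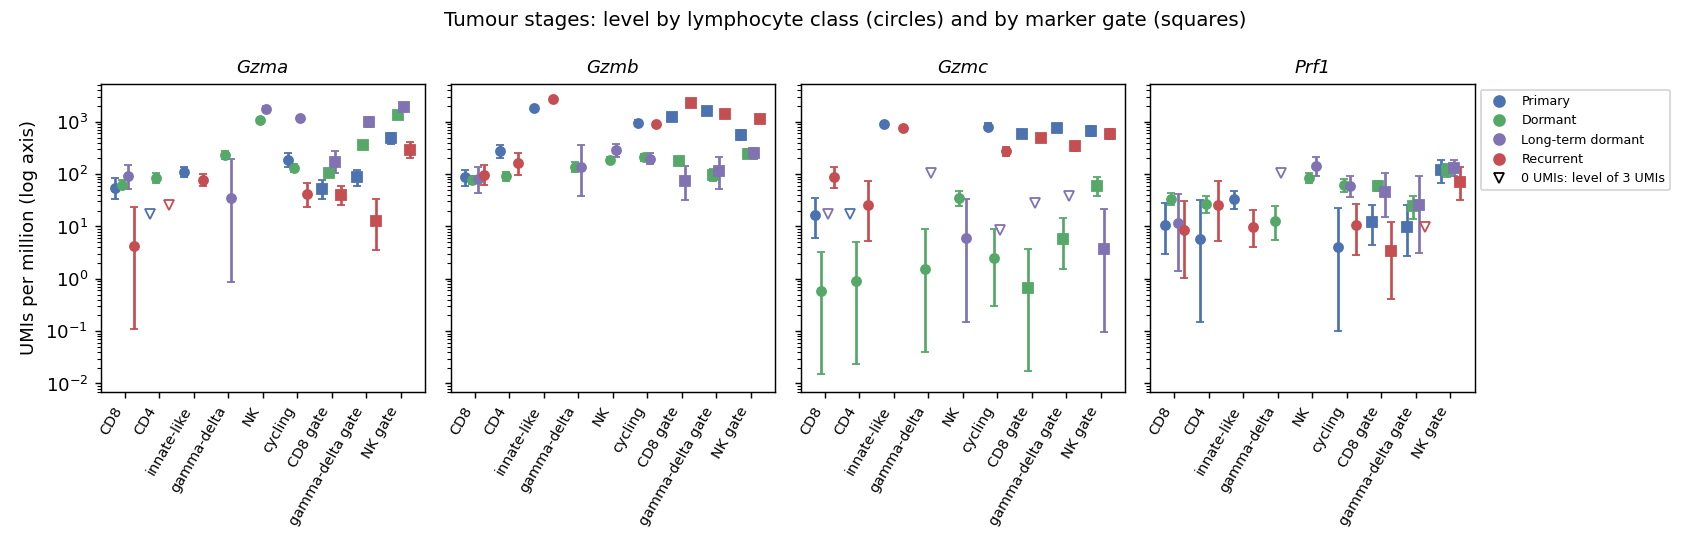
Levels of Gzma, Gzmb, Gzmc and Prf1 by lymphocyte class (circles, from clusters) and by single-cell gate (squares) in the 4 stage libraries, in CPM on a log axis, with 95% Poisson intervals. NK-like and NK-gated cells lead for Gzma within each dormant library, while innate-like cells of Primary and Recurrent lead for Gzmb and Gzmc.

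Granzymes B and C sat in the innate-like cells of the Primary and Recurrent tumours. In Primary this class was 29.6% of T and NK cells and held 80.9% of Gzmb and 77.4% of Gzmc UMIs. In Recurrent it was 43.3% of cells and held 83.2% and 80.9%. Gzmb stood at 1840 CPM (1747 to 1937; 51.9% of cells) in Primary and 2767 CPM (2646 to 2892; 63.1%) in Recurrent. Gzmc stood at 919 CPM (41.0%) and 764 CPM (38.4%). Neither was past the fold between the 2 libraries, at 0.59 (0.49 to 0.69) and -0.27 (-0.43 to -0.10). Epithelial cells, the background here, had a Gzmb UMI in 1.04% of cells in Primary and 0.828% in Recurrent at median depths of 5753 and 9491 UMIs, against 3506.5 and 3194 in the innate-like cells.

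A pair of members did differ between these innate-like classes. Gzmf had 0 UMIs in Primary and 257 UMIs in 18 of 203 cells in Recurrent (362 CPM), at least 95.7-fold higher. Prf1 was lower in Recurrent, at 9.87 CPM (7 UMIs) against 32.8 CPM (26 UMIs), a log2 difference of -1.66 (-3.18 to -0.49). So 1 of 5 members was past the fold in each direction, beside 2.87% of all genes higher and 2.09% lower. The Prf1 call was lost with a stricter cell filter (-0.32), with doublets kept, with the members among the clustering genes and in thinned cells, and the Gzmf call with the stricter filter. Gzmd and Gzme in Recurrent, with 7 and 5 UMIs, were all in innate-like cells.

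Within the innate-like class of Primary and Recurrent the cells with a CD8 receptor message had the highest Gzmb. The CD8-gated cells of the class stood at 3398 CPM in Primary (32 cells) and 4429 in Recurrent (63 cells), with a Gzmb UMI in 84.4% and 84.1%. Gamma-delta-gated cells of the class stood at 1843 and 2189 CPM, and NK-gated cells at 574 and 1055 CPM. Prf1 in these 2 libraries stood at 15.9 and 0 CPM in the CD8-gated and 110.4 and 59.7 CPM in the NK-gated cells, and Gzma at 221 and 239 CPM in the NK-gated cells. The IgG innate-like class had another order. Its 13 CD8-gated cells had Gzmb at 370.2 CPM, under the 779 CPM of its 29 gamma-delta-gated and the 655 CPM of its ungated cells, and Prf1 at 185 against 70.8 CPM in the gamma-delta-gated. In Recurrent the class was made of 2 clusters. The cluster with Cd8a among its leading genes (91 cells) had Gzmb at 3550, Gzmc at 1111 and Gzmf at 648 CPM. Its mean marker log2 ratio was 0.69 for CD8 and 0.47 for innate-like, and its Fcer1g and Tyrobp shares placed it in the innate-like class. The one led by the NK receptor genes Ncr1 and Klrc1 (112 cells) had 1957, 405 and 66.0 CPM.

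Gzmb and Gzmc were found in the same innate-like cells. Of cells with a Gzmc UMI, 83.9% in Primary and 83.3% in Recurrent also had Gzmb, against 29.6% and 50.4% of cells without Gzmc. Cells with Gzmc were deeper, with medians of 4379 against 2919 UMIs in Primary and 3618 against 3011 in Recurrent, and the part of depth was not tested. Of the 18 Recurrent cells with Gzmf, 83.3% had Gzmb. Gzmb was in 57.1% of the Primary innate-like cells with Prf1 and in 51.3% of those without.

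**Figure D3:**
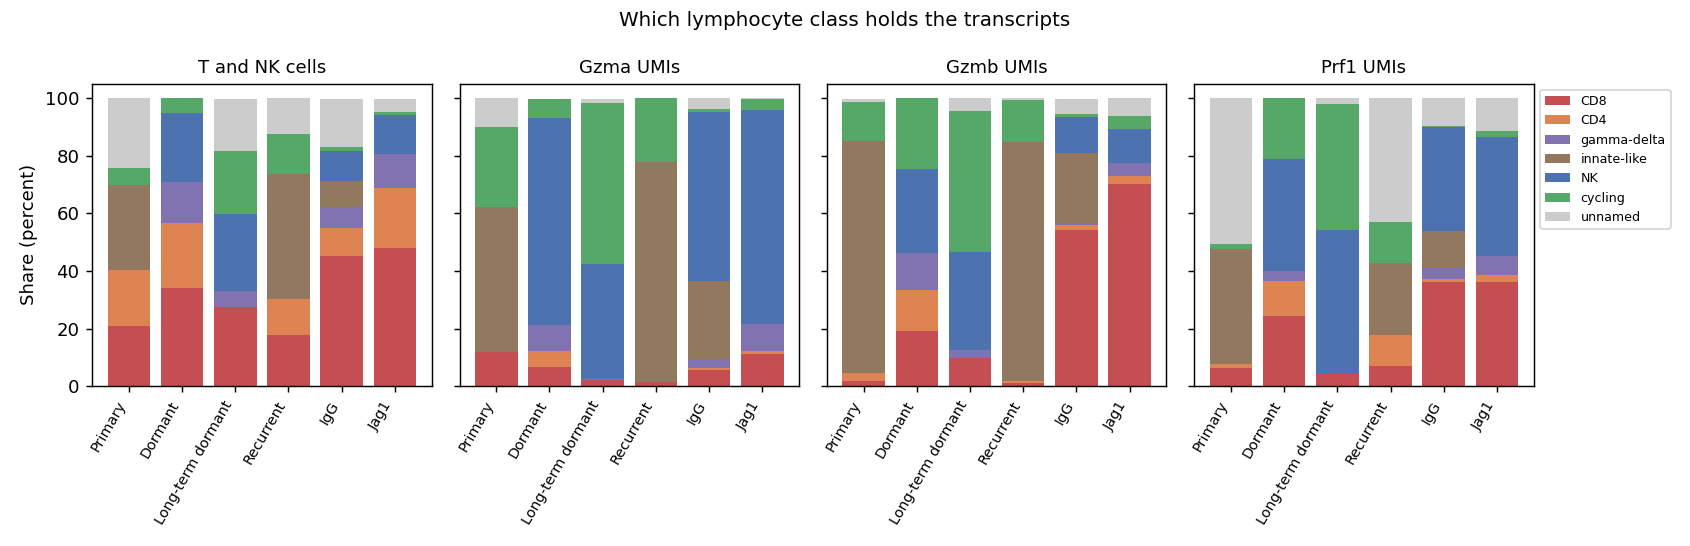
For each of the 6 libraries, stacked bars show the percentage of T and NK cells in each class and the percentage of Gzma, Gzmb and Prf1 UMIs that the class held. NK-like cells hold 71.9% of Gzma in Dormant and 74.5% in Jag1, and innate-like cells hold 80.9% and 83.2% of Gzmb in Primary and Recurrent.

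CD8-like clusters carried little Gzmb at any stage, at 86.2, 78.2, 80.8 and 97.7 CPM over the stages in that order. In Primary and Recurrent these clusters were led by Ly6c2, Gramd3 and Klf genes, which are common in resting T cells. The mean CD8 marker log2 ratio was low in Recurrent (0.17) and in the Dormant clusters of 261 (0.28) and 239 cells (0.16). None of those clusters had Cd8a or Cd8b1 among its leading genes. The ratio was 1.07 in Primary, 1.51 in the Dormant cluster of 134 cells and 1.72 in long-term dormant. The CD8 gate gave another picture. It also took innate-like cells, 32 in Primary and 63 in Recurrent, and was open to cells of every class. The part of each class was not tested. CD8-gated cells had Gzmb at 1218, 177, 73.3 and 2267 CPM and Gzmc at 583, 0.679, 0 and 494 CPM in the same order. The 2 high libraries for Gzmb were thus Primary and Recurrent among CD8-gated cells, and the CD8-like clusters of the 4 stages had overlapping intervals.

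Among CD8-like cells of Dormant against Primary, 2 of 4 members were past the fold higher, Gzmm at 2.87 and Prf1 at 34.0 against 10.8 CPM (57 against 4 UMIs, a log2 interval of 0.22 to 3.58), and 0 lower (background 8.91% and 7.93%). The Prf1 call was lost under 5 alternatives and turned to -0.09 with a stricter cell filter, and the Gzmm call was lost in thinned cells (1.40). Of 5 members in Recurrent against Dormant, Gzmc was higher and Gzma and Prf1 lower (background 5.84% and 5.21%). Of 3 in Recurrent against Primary, Gzmc was higher and Gzma lower (background 3.24% and 2.85%). These rested on 1 to 21 UMIs in the Recurrent class, each was lost under at least 4 alternatives, and Gzmc against Primary turned to -0.24 with the CD8 gate. Long-term dormant against Dormant had 0 of 4 past the fold (background 9.41% and 2.60%). Within Dormant, the CD8-like cluster with Ccl5 and Lag3 among its leading genes had Gzmb at 244, Gzma at 185 and Prf1 at 104 CPM. In the other 2 CD8-like clusters Gzmb was 51.7 and 12.8 CPM and Prf1 18.7 and 11.2 CPM. The Primary cluster led by Ccl5 and Lag3 (Prf1 119 CPM) was unnamed and outside its CD8-like class, so the classes compared differ in makeup.

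CD4-like cells, which include Foxp3-positive clusters, had Gzmb at 273 CPM in Primary, 91.3 in Dormant and 163 in Recurrent. Dormant against Primary was lower at -1.59 (-2.09 to -1.05), and Gzma was at least 4.82-fold higher in Dormant (92 UMIs against 0), so 1 of 3 members was called in each direction beside 5.27% and 6.11% of all genes. Recurrent against Dormant had Gzma at least 3.26-fold lower as the 1 of 3 called (background 5.96% higher, 3.08% lower), and Recurrent against Primary had 0 of 1 (background 3.72% and 2.75%). In cycling cells Recurrent against Dormant had Gzmb (2.10) and Gzmc (6.47) higher and Gzma (-1.61) and Prf1 (-2.39) lower, 4 of 4 members, beside 4.66% and 7.12% of all genes. Dendritic cell markers summed to 1296 CPM in the Dormant cycling cells (8 of 8 detected) and 86.7 CPM in those of Recurrent (5 of 8), and their part was not tested. Gamma-delta-like cells of Dormant held Gzma at 234 CPM (13.6% of cells) and Gzmb at 138 CPM, and the 26 such cells of long-term dormant had 1 Gzma and 4 Gzmb UMIs.

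Perforin was spread over several classes that differed by library. In Dormant NK-like cells held 39.0% of Prf1 UMIs, CD8-like cells 24.2% and cycling cells 21.2%. In long-term dormant NK-like cells held 24 of 48 and cycling cells 21. In the arms NK-like cells held 36.3% (IgG) and 41.4% (Jag1), and CD8-like cells 36.1% in each. In Primary an unnamed cluster led by Ccl5, Cd4, Lag3 and Pdcd1 (173 cells) held 50.8% at 119 CPM (81.7 to 167), against 40.0% in the innate-like class. A like unnamed cluster of Recurrent (59 cells) held 42.9% at 94.9 CPM. The Primary cluster had Gzmb at 82.7 CPM, and the Recurrent cluster at 111 CPM, both far under the innate-like cells. Of NK-like cells with a Prf1 UMI, 65.3% in Dormant and 84.2% in long-term dormant also had Gzma, against 43.4% and 46.2% of those without, at median depths of 2221 against 2095.5 and 1506 against 1255 UMIs.

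Granzyme M was a low message in every class. Its level in CD8-like cells was 2.69, 29.2, 5.77 and 29.7 CPM over the 4 stages, on 1, 49, 1 and 7 UMIs. In long-term dormant and Recurrent 22.4% and 16.7% of all its UMIs were in T and NK cells. For Gzma and Gzmb that share was 87.8% to 99.0% and 89.9% to 97.0% over the 6 libraries.

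In the antibody arms no member was past the fold over all lymphocytes. In all T and NK cells of IgG and Jag1, Gzma stood at 476 and 567 CPM, Gzmb at 237 and 251, Gzmk at 82.8 and 59.4, Prf1 at 119 and 115 and Gzmm at 7.67 and 8.65 CPM. The fold was passed by none of 6 members with enough UMIs, where 0.976% of all genes were higher and 1.51% lower. The log2 differences were 0.25 (0.20 to 0.31) for Gzma, 0.08 for Gzmb, -0.48 (-0.63 to -0.33) for Gzmk and -0.05 for Prf1. Gzmc differed by 0.70 on 20 and 56 UMIs, and by 1.48, past the fold, once the cell richest in it was left out of each library, and turned to -0.42 over gated cells. Gzmf had 1 and 3 UMIs, Gzme 4 and 0, and Gzmd 0 in both, where 3 UMIs would equal 0.384 and 0.226 CPM. Mast cell markers summed to 142 CPM in IgG lymphocytes (6 of 6 detected) and 13.5 CPM in Jag1 (2 of 6), and at 1181 and 85.2 CPM in the NK-like cells (6 and 2 of 6 detected). Their part in the values was not tested.

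**Figure D4:**
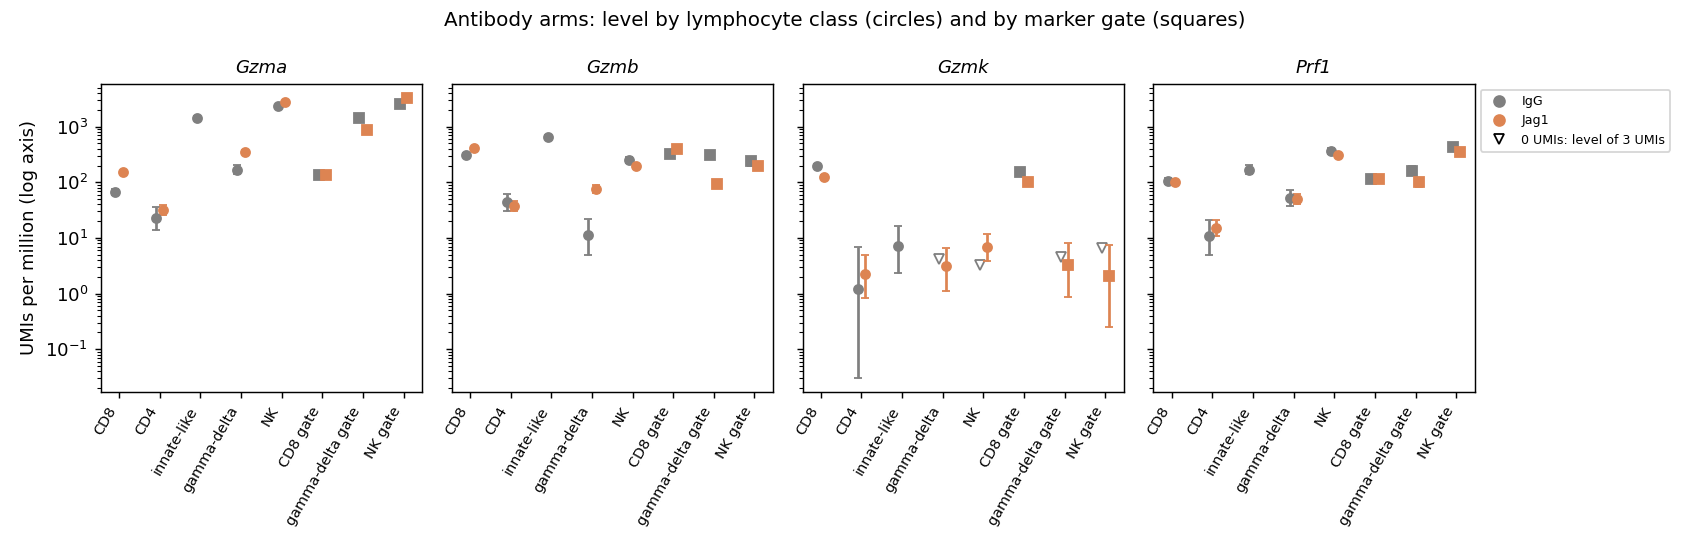
Levels of Gzma, Gzmb, Gzmk and Prf1 by lymphocyte class (circles) and single-cell gate (squares) in IgG and Jag1, in CPM on a log axis with 95% Poisson intervals. Gzma and Prf1 are highest in NK-like and NK-gated cells of both arms, and Gzmk stands at 197 and 125 CPM in CD8-like cells.

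NK-like cells were the main Gzma carriers in both arms, with 58.6% of its UMIs in IgG and 74.5% in Jag1. The innate-like class of IgG, 8.80% of cells, held another 27.1%, and Jag1 had no such class. NK-like cells were 10.6% and 13.7% of T and NK cells. Gzma stood at 2359 CPM (48.7% of cells) and 2776 CPM (60.4%), Prf1 at 366 CPM (105 of 191 cells) and 315 CPM (178 of 338), and Gzmb at 251 and 196 CPM. None of 4 members was past the fold, with differences of 0.23, -0.22 and -0.36 for the 3 genes (background 1.04% higher, 2.51% lower). The NK-like cells fell into 2 clusters in each arm. In IgG the cluster with the receptor gene Klra4 had Gzma at 4928, Prf1 at 766 and Gzmb at 495 CPM, and the cluster with Hes1 and Car2 had 735, 113 and 97.2 CPM. In Jag1 the same pair had 5793, 584 and 434 CPM against 712, 130.2 and 33.4 CPM. In Dormant the Klra4 cluster had Gzma at 1483 against 811 CPM but Prf1 at 76.1 against 90.1 CPM.

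CD8-like cells carried most of the Gzmb of the arms, 54.1% in IgG and 70.1% in Jag1, and 97.7% and 88.7% of the Gzmk. They were 45.1% and 47.9% of T and NK cells. In IgG the innate-like class, 8.80% of cells, held another 24.7% of Gzmb. Jag1 had no such class, so the classes that share the UMIs differed between the arms. In CD8-like cells Gzmb stood at 313 CPM (26.9% of cells) and 419 CPM (33.4%), a difference of 0.42. Gzmk stood at 197 CPM (36.7%) and 125 CPM (31.4%), a difference of -0.65 (-0.81 to -0.50). The 25 cycling cells of Jag1 also had Gzmk, at 159.8 CPM. Prf1 in CD8-like cells was at 105 and 99.1 CPM. Gzma was the 1 of 5 members past the fold, at 66.8 CPM (7.16% of cells) in IgG and 150.1 CPM (12.2%) in Jag1, higher by 1.17 (0.95 to 1.39), beside 0.831% of all genes higher and 1.51% lower. All other cells had a Gzma UMI in 5.28% in IgG and 8.75% in Jag1. The call was lost with a stricter cell filter (0.96), at a Leiden resolution of 2.0 (0.98), with the members among the clustering genes (0.87), with the unnamed Lag3 clusters joined (0.46) and with the CD8 gate (0.02).

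Gzmb and Gzmk marked CD8-like clusters that overlapped. In IgG 1 cluster stood at 761 CPM for Gzmb, another led by Gzmk at 265 CPM for Gzmk, and the one with Klf2 and Il7r at 4.93 CPM for Gzmb. In Jag1 Gzmb was at 722 and 755 CPM in 2 clusters and at 71.8 CPM in the largest, and 1 of those 2 had Gzma at 362 CPM. A Gzmk UMI was in 32.6% of the IgG CD8-like cells with Gzmb and 38.2% of those without, and in 34.0% and 30.1% in Jag1. Gzmb was in 35.1% of cells with Prf1 and 23.0% of those without in IgG, and in 40.0% and 30.1% in Jag1. An unnamed Jag1 group (110 cells), mostly a Cd8a-high cluster with Lag3 and Pdcd1, had Prf1 at 242 CPM and Gzmb at 287 CPM. The other 20 cells of that group were led by immunoglobulin genes and held 1 Prf1 and 1 Gzmb UMI, and plasma cell markers summed to 5983 CPM over the group.

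For gamma-delta-like cells the direction between arms depended on where the class ended. In the clusters Gzma was 169 CPM in IgG and 357 in Jag1, higher by 1.07 (0.80 to 1.37). Gzmb was 11.2 and 76.6 CPM, higher by 2.69 (1.76 to 4.02), and Gzmc had 0 and 30 UMIs, of which 21 were in 1 cell. That made 3 of 5 members past the fold higher and 0 lower, beside 1.31% and 2.73% of all genes. By single-cell gates the order turned. Gamma-delta-gated cells had Gzma at 1448 CPM in IgG (129 cells) and 884 in Jag1 (198 cells), and Gzmb at 312 and 93.6 CPM. The IgG library had an innate-like class, with Gzma at 1440, Gzmb at 655 and Prf1 at 167 CPM and Trdc among the leading genes of 1 of its clusters, and Jag1 had none. With the innate-like cells joined to the gamma-delta-like, Gzma was at -1.16 and Gzmb at -2.10. CD4-like cells had 0 of 3 members past the fold, with Gzmb at 43.6 and 37.8 CPM (background 1.42% and 3.26%). An IgG cluster of 179 cells with Ramp3, Cd40lg and Slamf1 among its leading genes was left unnamed. A Jag1 cluster of 217 cells with the same genes among its own was CD4-like, so the CD4-like classes compared differ in makeup.

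**Figure D5:**
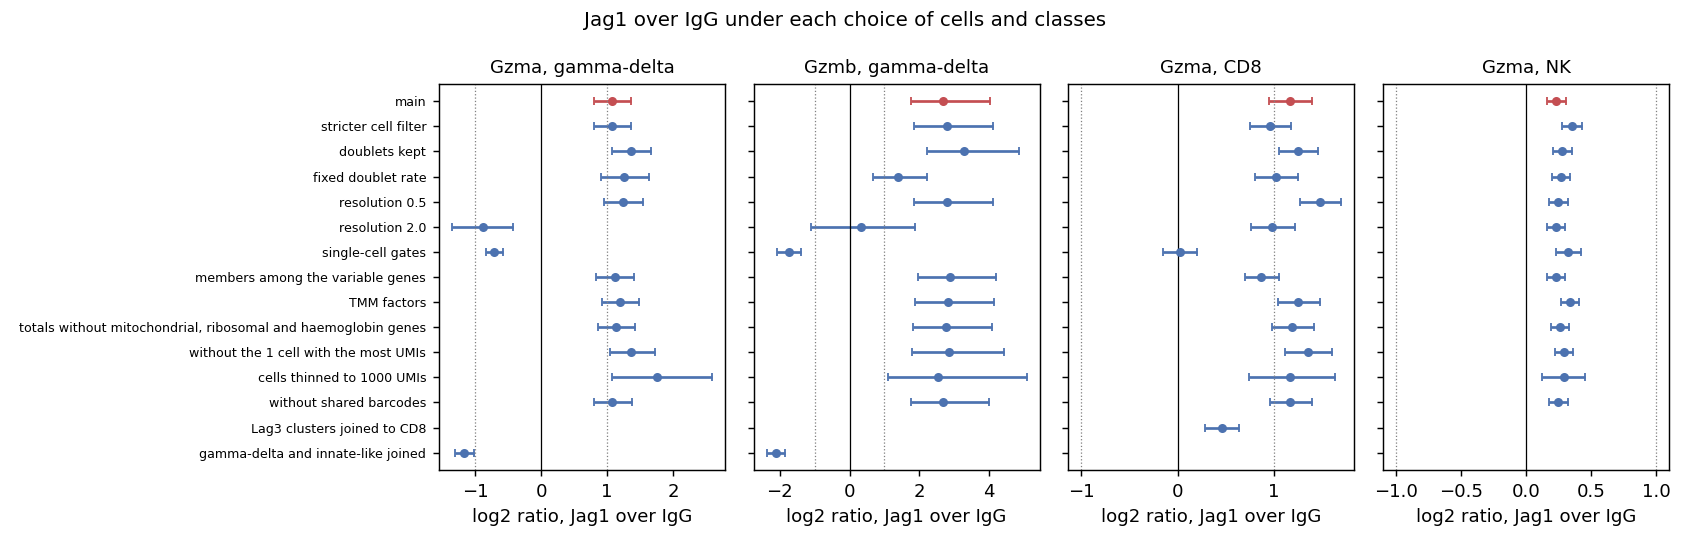
Log2 ratio of Jag1 over IgG for Gzma and Gzmb in gamma-delta-like cells and for Gzma in CD8-like and NK-like cells under the main setting (red) and each alternative, with 95% intervals and dotted lines at 2-fold either way. The gamma-delta ratios lie on both sides of 0, Gzma in CD8-like cells ranges from 0.02 to 1.48, and Gzma in NK-like cells stays within 2-fold.

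Few granule loading genes were past the fold in all T and NK cells. In those cells 8.93% of all genes were higher and 7.65% lower in Dormant against Primary, and 9.62% and 4.58% in long-term dormant against Dormant. The shares were 7.84% and 7.29% in Recurrent against Dormant, 2.44% and 1.75% in Recurrent against Primary, and 0.976% and 1.51% in Jag1 against IgG. Nkg7, a granule membrane protein, was at 1994, 1238, 1260 and 1766 CPM over the stages, and Srgn, the proteoglycan that packs granzymes, at 721, 831, 551 and 728 CPM. Of 7 loading genes in all T and NK cells, 1 was higher and 1 lower in Dormant against Primary. These were Ctsl (1.25) and Ctsc (183 to 48.2 CPM, -1.92), the protease that activates progranzymes, both named after their values were seen. Recurrent against Dormant had Cst7 higher (1.13) and Ctsl lower (-1.23), Recurrent against Primary had Ctsc lower (-1.07), and the other 2 comparisons had 0 in either direction. Of 9 listed granule release genes 8 had enough UMIs in Dormant against Primary and in Recurrent against Dormant. Stx11 (1.27) and Lyst (1.60) were higher in the first, and Lyst was lower in the second (-1.19).

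Of 5 serpin genes listed together as granzyme inhibitors, 1 or 2 were past the fold in all T and NK cells in each of the 5 comparisons. In Recurrent against Primary 4 of the 5 had enough UMIs. Not each of the 5 need act on a mouse granzyme, and inhibition was not measured. Serpinb1a was also a leading gene of the gamma-delta-like clusters with Cd163l1 in IgG (13 cells) and Jag1 (22 cells). Serpinb9, the inhibitor of granzyme B, was at 6.44 CPM in Primary and 23.7 in Dormant (higher by 1.83), and Serpinb9b, an inhibitor of granzyme M, at 35.4 and 94.3 CPM (1.40), the 2 of 5 called. Long-term dormant against Dormant had Serpinb6a (1.14) and Serpinb1a (2.28) higher. Recurrent against Dormant had Serpinb9b (-1.20) and Serpinb1a (-2.27) lower, and Recurrent against Primary had Serpinb9 higher (1.10). In Jag1 against IgG Serpinb1a was lower (-1.31), the 1 of 5 called. Gzmg and Gzmn, the other granzymes of the chromosome 14 row, never reached 20 UMIs.

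In all T and NK cells other effector genes split in the same comparisons. Of 8, Ccl5 (2857 CPM in Primary, 9074 in Dormant) and Ifng were higher in Dormant, at 1.67 and 1.88. Xcl1 (1386 and 359 CPM) and Tnfsf10 were lower, at -1.95 and -1.93. Recurrent against Dormant had Xcl1 (1.85) and Tnfsf10 (1.86) higher and Ccl5 (-2.84), Ifng (-2.40) and Ccl4 (-1.13) lower. Fasl, the ligand of the other killing pathway, was at 55.2, 40.9, 32.2 and 38.3 CPM and was not called at any stage. Recurrent against Primary had Ccl4 (-1.46) and Ccl5 (-1.17) lower, and long-term dormant against Dormant had Ifng lower (-1.24). In Jag1 against IgG the effector list had 1 gene called, Ccl3, higher by 1.22.

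The next 5 lists were also counted in all T and NK cells. Of 9 transcription factors 8 had enough UMIs in every comparison. Eomes, a T-box factor of NK and effector T cells, and Tcf7, a factor of less differentiated T cells, were higher in Dormant against Primary (1.13 and 1.05). Both were lower in Recurrent against Dormant (-1.27 and -1.25). Eomes stood at 33.8, 74.4, 66.7 and 30.6 CPM over the stages. Of 6 chronic stimulation receptors Pdcd1 was lower in Dormant against Primary (-1.29), and Lag3 and Tigit in Recurrent against Dormant (-1.44 and -3.06). Pdcd1, Havcr2, Lag3 and Tigit were lower in long-term dormant against Dormant, with Lag3 at 5.75 against 189 CPM. The transcription factors and chronic stimulation receptors had 0 called in Recurrent against Primary, and the transcription factors 0 in long-term dormant against Dormant. Of 5 residency genes 1 was lower in Dormant against Primary (Itgae, -1.94) and 2 were higher in Recurrent against Dormant (Itgae, 2.03, and Itga1, 1.94). Long-term dormant against Dormant had Itga1 higher and Rgs1 lower, and Recurrent against Primary had Itga1 higher and Cxcr6 lower. Of 12 proliferation genes 8 were higher in long-term dormant and 6 in Recurrent against Dormant, beside 9.62% and 7.84% of all genes. In Dormant against Primary 3 were lower (7.65% of all genes), and in Recurrent against Primary 1 was higher (2.44%). Of 11 handling-stress genes 5 were higher in Dormant against Primary (8.93% of all genes) and 6 lower in Recurrent against Dormant (7.29%). Long-term dormant against Dormant had 3 higher and 5 lower (9.62% and 4.58%). Recurrent against Primary had 1 higher and 2 lower (2.44% and 1.75%). In Jag1 against IgG none of these 5 lists had a gene past the fold in all T and NK cells. Single classes did have calls. In NK-like cells 3 of 5 chronic stimulation receptors with enough UMIs were higher and 0 lower, beside 1.04% and 2.51% of all genes. Other calls of these lists in single classes are not listed here.

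As a description over class and library units of at least 30 cells, which share libraries and depth, the genes most like each member by Pearson r of log2(CPM + 10) were listed. Over the 19 stage units they were Spry2 (0.87), Klra4 (0.86), Xrn2, Rbpms and Atp1b1 for Gzma. For Gzmb they were Tnni1 (0.91), Klra5 (0.81), Sema6d, Reep5 and Eif5a, and for Gzmc Klra5 (0.91), Micos13 (0.87), Tnni1, Sema6d and Emid1. Among the members Gzmb had r = 0.84 with Gzmc, 0.14 with Gzma and -0.17 with Prf1. For Prf1 they were Irf8 (0.78), Eomes (0.76), Klri2, Map7d1 and Gem, and for Gzmf Klra5 (0.66), AA467197, Itfg1, eGFP and Cxcl10. Gzmk, with 22 UMIs over the stages, is not described there.

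Over the 11 units of the arms the genes were Cnppd1, Cemip2, Dnajc25, Tpd52 and Lgals9 for Gzma (0.94 to 0.95). For Gzmb they were Ccl4 (0.96), Mknk2, Hip1, Ltk and Cdk2ap1, and for Gzmk Lmo1 (0.98), Ret (0.97), Rpa2, H60b and Fyn. For Prf1 they were Cenpq (0.96), Eomes (0.95), Otulin, Selenon and Lrrk1, and for Gzmc, on 76 UMIs, Gsdme (0.89), Armc1, Cotl1, Cd164 and Rusc1. Eomes was among the 5 genes most like Prf1 in both tables, and Gzmb had r = 0.71 with Prf1 in the arms.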

How the data were processed

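Single-cell RNA was measured in 6 libraries, 1 per group. Per the submitters' processing notes reads were processed with Cell Ranger 3.1.0 and FastQC against mm10, and the deposited values are raw UMI counts per gene and cell, in 1 table for the 4 stages and 1 for the 2 antibody arms. The counting annotation was not given in the sources used here. The deposited tables hold 2133 (IgG) to 6083 (long-term dormant) cells per library.

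From these counts, cells under 500 UMIs, under 200 genes or over 20% mitochondrial UMIs were left out (Python 3.11.15, scanpy 1.11.5). Scrublet doublets were removed. It called 0 cells in Dormant and 0.236% and 0.257% in IgG and Jag1, so a fixed rate of 0.8% per 1000 cells was an alternative. Cells were clustered per table (2000 variable genes, 30 components, 15 neighbours, Leiden 1.0) without the 9 genes, and T and NK cells again within each library (20 components). A cluster with Mki67 in at least 25% of cells was called cycling. One with Cd3e in at most 30% was NK-like, and one with Fcer1g and Tyrobp in a mean of at least 60% innate-like. The rest went by their best lineage score, the mean log2 ratio of a class's markers to all T and NK cells of the library. A cluster was left unnamed where no class open to it had a positive score, or where plasma or B cell markers were high. The unnamed clusters of Primary (173 cells) and Recurrent (59 cells) had no positive score. Also left unnamed were clusters whose 10 leading genes held more markers of another class than of their own, or at low depth none of their own. So were the Lag3 clusters of IgG and Jag1, each with a CD8 score of 1.66. These rules were set after the clusters were seen. A CD8 gate took cells with a T cell receptor or CD3 UMI and a Cd8a or Cd8b1 UMI and no Cd4 or Trdc UMI. The gamma-delta gate took cells with a Cd3 or Trac and a Trdc UMI and no Cd4 or Cd8 UMI, and the NK gate cells with an NK receptor UMI and no Cd3, Trac, Cd4 or Cd8 UMI.

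UMIs were summed per library and class, and levels are UMIs per 1000000 (CPM). Intervals (95%; Poisson for levels, Clopper-Pearson for shares, conditional Poisson for ratios) cover counting error only. Ratios used a prior of 0.5 counts and classes of at least 50 cells, and a fold against 0 counts was bounded at 3 UMIs over the class. No test was made, since each group is 1 library. The code was tested on simulated data. Those counts were drawn by the same Poisson model as the intervals, so UMIs clumped in single cells were not covered. Alternatives included TMM factors (edgeR 4.0.16). The members and lists were chosen with earlier results of these data known. All 9 members are named throughout. Of the other lists, the 4 members with the most UMIs were eligible for naming by level, and genes past the fold were named after their values were seen. Of the 9 members, 9 matched the RefSeq start-region table.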

Additional observations from a re-analysis of the deposited data

Results flagged for a closer look

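At least 20 UMIs of a member, above the 3 that a count of 0 allows, were found outside T and NK cells in 15 cases, in cell types of at least 50 cells that the comparisons did not use. For Jag1 only cases past the fold above IgG are given, and cases with fewer UMIs are not listed. In Primary, dendritic cells held 52 Gzmb UMIs, 96.2% of them in 1 of 75 cells. Epithelial cells of Primary held 30 Gzmb UMIs in 22 of 2106 cells and 30 Gzmc UMIs in 11 cells, with 63.3% in 1 cell.

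In Dormant, epithelial cells held 44 Gzma UMIs in 16 of 306 cells and 26 Gzmb UMIs in 15 cells. Plasma cells held 80 Gzma UMIs in 8 of 287 cells, 73.8% in 1 cell. Plasmacytoid dendritic cells held 44 Gzma UMIs in 13 of 129 cells (10.1%), 38.6% in 1 cell.

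In long-term dormant, fibroblasts held 53 Gzma UMIs in 25 of 3069 cells and 31 Gzmm UMIs, 1 in each of 31 cells. In Recurrent, epithelial cells held 92 Gzmb UMIs in 22 of 2657 cells (52.2% in 1 cell), 40 Gzmc UMIs in 14 cells, and 33 Gzmm UMIs, 1 in each of 33 cells. Fibroblasts of Recurrent held 21 Gzmb UMIs, all in 1 of 106 cells.

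In Jag1, B cells held 51 Gzmb UMIs, 98.0% in 1 of 69 cells, against 1 UMI in IgG. Macrophages or monocytes of Jag1 held 165 Gzma UMIs, 97.6% in 1 of 76 cells, against 18 UMIs in IgG, and all 165 were in cells whose barcode also occurs in IgG. The source of these UMIs was not tested.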

How the results depend on the processing

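No paired analysis was possible because each group is 1 library. The alternatives gave 984 values for 82 ratios. These were ratios of members and their sum in all T and NK, CD8-like, NK-like, gamma-delta-like and innate-like cells. Ratios in CD4-like and cycling cells, and those of other genes, were not run under them. The 30 ratios past the fold changed direction 11 times and lost the call 60 times, and the other ratios gained a call 45 times; changes of direction among those are not counted. Thinning to 1000 UMIs, which also left out cells under that depth, lost 12 and gained 0. Chosen after seeing the data were the runs without shared barcodes (0 lost, 2 gained), with the Lag3 clusters joined to CD8-like cells, and with gamma-delta-like and innate-like cells joined. The cause of a change was not tested.

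The summed level of the 9 genes in all T and NK cells differed by -1.65 in Dormant against Primary (TMM -1.57, thinned -1.10) and by 1.10 in long-term dormant against Dormant (gates 1.36, TMM 0.88, thinned 0.81). It differed by 2.10 in Recurrent against Dormant (doublets kept 1.87, TMM 2.01, thinned 1.69), by 0.44 in Recurrent against Primary (stricter filter 0.37, doublets kept 0.20, thinned 0.59) and by 0.12 in Jag1 against IgG (gates 0.04, TMM 0.21, thinned 0.07). Members lower in long-term dormant against Dormant numbered 1, and 0 with gates, without the richest cell or thinned. In Recurrent against Primary they numbered 0, but 2 with the stricter filter, doublets kept or shared barcodes left out, and 1 with gates, members among the variable genes, TMM, totals without mitochondrial, ribosomal and haemoglobin genes, or the richest cell left out. Members higher in Jag1 against IgG numbered 0, and 1 without the richest cell.

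In CD8-like cells Prf1 in Dormant against Primary turned to -0.09 with the stricter filter, and Gzmc in Recurrent against Primary to -0.24 with gates. In gamma-delta-like cells, Jag1 against IgG, the sum turned to -0.49 at resolution 2.0, -0.83 with gates and -1.27 joined, Gzma to -0.88, -0.71 and -1.16, Gzmb to -1.74 with gates and -2.10 joined, and Gzmc to -1.76 with gates.

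Depth limits Gzmd and Gzme in all 6 libraries and Gzmk at the 4 stages, each with under 20 UMIs per library, and Gzmm outside Dormant at the stages. Long-term dormant had the fewest lymphocyte UMIs (869686).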
